A study of Mus musculus with 6 samples.

Results

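The 10 genes described here encode ligands of the TNF superfamily: Tnf, Lta, Ltb, Tnfsf4, Tnfsf8, Tnfsf10, Tnfsf11, Tnfsf14, Fasl and Cd40lg. They were taken by name as rows of a deposited table of read counts for 29393 mouse genes. All 10 were found in it, and all 10 were among the 14916 genes with enough counts to be tested. The cells were cDNT, sorted mouse T cells that lack both CD4 and CD8. They are converted ex vivo from CD4+CD25- T cells of C57BL/6 mice carrying CD45.1, which are kept with IL-2 and mature dendritic cells. The labels give adult C57BL/6 mice, spleen and double negative T cells. In 3 libraries the cells had been given 50 ng/ml of IL-10 over 24 h (called W/ IL-10 here), whereas the other 3 came from cells without IL-10 (called W/O IL-10). The study's methods state that anti-CD3/CD28 antibodies were given with IL-10. The labels call the controls unstimulated, and neither source says whether the controls received these antibodies. The question of the comparison was how IL-10 changes the transcriptome of cDNT.

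Ligands of the TNF superfamily are mostly made as transmembrane proteins that assemble as trimers, act on neighbouring cells by contact, and can be shed from the surface. Each binds one or a few receptors of the TNF receptor superfamily, which either carry a death domain and can start apoptosis or recruit TRAF proteins and feed NF-kB. T cells use these ligands to kill (Fasl, Tnfsf10), to license dendritic cells and B cells (Cd40lg), to organise lymphoid tissue (Lta, Ltb) and to sustain other T cells (Tnfsf4, Tnfsf8, Tnfsf14). IL-10 is known mainly for restraining inflammatory cytokines, TNF among them, in macrophages, where it acts through STAT3.

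The read counts on genes summed to between 21619420 and 23967088 per library. Expression is given as CPM, the count scaled to a common library total with TMM factors, with SD over the 3 libraries of a group. Calls of differential expression required a 1.5-fold difference and an adjusted p-value under 0.05 in edgeR's quasi-likelihood test over all tested genes. The labels do not say whether the libraries came from separate cultures or animals, so the p-values measure the spread between these libraries, which may be technical. The T cell markers Cd3d, Cd3e, Cd3g, Cd247, Cd2, Cd5, Lck and Trac were all detected, with a summed level of 1542 to 1923 CPM W/O IL-10 and 2036 to 2118 CPM W/ IL-10. Of these 8, 7 had higher means W/ IL-10, and none was called. Cd5 went the other way, from 62.4 to 44.9 CPM, and passed the adjusted p but not the fold change (edgeR adjusted p = 0.0467). Cd4 had 8 to 38 counts per library. Although the cells are labelled double negative, Cd8a mRNA was present at 107 ± 11.7 CPM W/O IL-10 and 158 ± 16.6 CPM W/ IL-10, and Cd8b1 mRNA at 38.1 ± 6.03 and 60.8 ± 5.15 CPM. Cd8b1 was called 1.59-fold higher W/ IL-10 (edgeR adjusted p = 0.0306). Cd8a, at 1.48-fold, passed the adjusted p but not the fold change (edgeR adjusted p = 0.0369). Both Cd8 mRNAs thus rose W/ IL-10, while the ligands went in both directions. The part of the Cd8 mRNAs in the results was not tested. The cells had been sorted by FACS, but the 6 B cell markers were detected too, at a summed 140.1 to 214 CPM W/O IL-10 and 87.0 to 145 CPM W/ IL-10, and all 6 had lower means W/ IL-10 although only Blk was called. Blk alone stood at 63.6 ± 13.1 CPM W/O IL-10 and 34.5 ± 6.00 CPM W/ IL-10. It was the only 1 of the 6 whose groups did not overlap. The dendritic cell markers summed to 123 to 157 CPM W/O IL-10 and 102 to 129 CPM W/ IL-10, but they went in both directions. Itgax was called 2.13-fold higher W/ IL-10 (edgeR adjusted p = 0.00383), while Ccl22, Fscn1 and Cd83 had log2 fold changes of -2.66, -1.71 and -0.92 that did not pass the test (edgeR adjusted p = 0.102, 0.105 and 0.0840), and Clec9a had 1 count in 1 library and 0 in the others. The macrophage markers summed to 26.9 to 34.6 CPM W/O IL-10 and 31.1 to 34.4 CPM W/ IL-10.

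With IL-10, Tnfsf10 rose 4.11-fold, while Lta was 1.84-fold and Tnfsf11 1.68-fold lower. Hence 3 of the 10 ligands were called, against 1.45% of all tested genes. The ligands were chosen with earlier results of these data known, so these shares describe the ligands and are no test of enrichment. The 1 upregulated ligand stands beside 0.778% of genes called upward, and the 2 downregulated ligands beside 0.677% called downward. The libraries with and without IL-10 did not overlap for 5 ligands, Tnfsf10, Lta, Tnfsf11, Ltb and Cd40lg, whereas they did not overlap for 22.6% of all tested genes. Of the 10, 4 had a higher and 6 a lower mean W/ IL-10, and their median log2 fold change was -0.02 (0.01 over all tested genes). In bulk RNA, fewer cells making a ligand and less RNA per cell cannot be told apart.

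**Figure D1:**
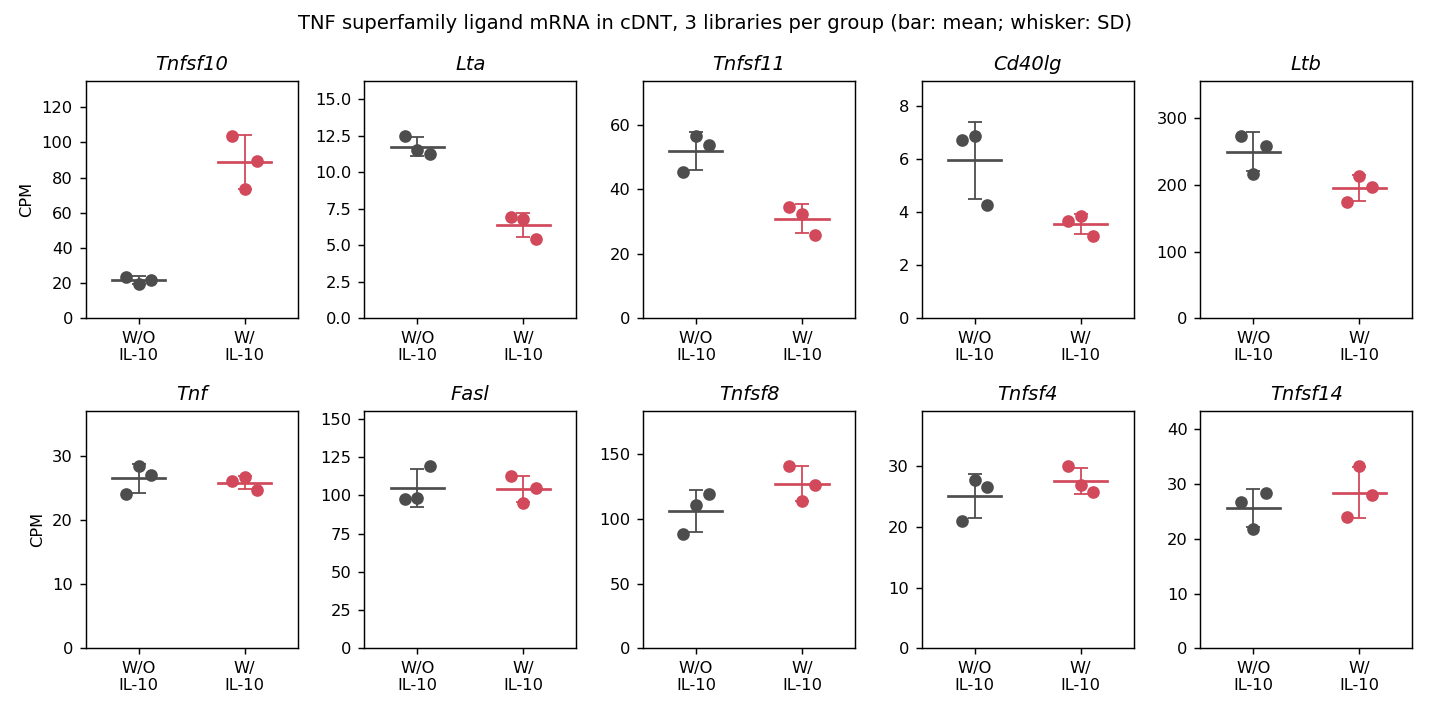
CPM of each of the 10 ligands (y axis, from 0, own scale per gene) in the 3 W/O IL-10 (grey) and 3 W/ IL-10 (red) libraries, with the mean as a bar and the SD as a whisker. Tnfsf10 lay at 19.3 to 23.7 CPM W/O IL-10 and 73.3 to 104 CPM W/ IL-10, and the points of Tnf, Fasl, Tnfsf8, Tnfsf4 and Tnfsf14 overlapped between the groups.

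Tnfsf10 (ENSMUSG00000039304, chr3:27317028-27342427 on the plus strand of GRCm38) encodes TRAIL, a ligand that can kill cells through death receptors. It was measured at 23.7, 19.3 and 21.8 CPM in the W/O IL-10 libraries (in the order of their replicate numbers, as in all such lists) and at 104, 73.3 and 89.3 CPM in the W/ IL-10 libraries. The lowest library W/ IL-10 was thus well above the highest W/O IL-10. These values rested on 466 to 579 and 1651 to 2135 counts. The log2 fold change was 2.04 (SE 0.14, 95% interval 1.73 to 2.35, edgeR adjusted p = 0.000503), which placed Tnfsf10 at rank 4 of all tested genes by p-value. With any 1 library left out it was between 1.91 and 2.16, and the call held each time.

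Fasl (ENSMUSG00000000817, chr1:161780689-161788495, minus strand) encodes the ligand of the death receptor Fas and is the other main killing ligand of T cells. It was measured at 97.4, 98.0 and 119 CPM W/O IL-10 and at 112, 95.1 and 105 CPM W/ IL-10, and the groups overlapped. Between the groups, the log2 fold change was -0.01, with a 95% interval of -0.24 to 0.22 (edgeR adjusted p = 0.979). The interval leaves out a change of the size of Tnfsf10. Per kb of merged exon, Fasl stood far above Tnfsf10 in both groups. This rests on the exon lengths, 1937 bases for Fasl and 5266 for Tnfsf10. Without division by length, the means W/ IL-10 were nearer, at 104 CPM for Fasl and 88.8 CPM for Tnfsf10. The ratio of Tnfsf10 to Fasl per length was 0.0893, 0.0724 and 0.0674 W/O IL-10 and 0.339, 0.284 and 0.314 W/ IL-10. Its groups did not overlap, and a two-sided exact permutation test gave p = 0.1, the smallest value that 3 libraries against 3 allow. This was 1 of 5 ratios between ligands that were chosen after their values were seen.

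Lta, Tnf and Ltb lie side by side on chromosome 17, within 10913 bases. Ltb (ENSMUSG00000024399, chr17:35194439-35196320) is on the plus strand, and Tnf (ENSMUSG00000024401, chr17:35199381-35202007) and Lta (ENSMUSG00000024402, chr17:35203165-35205351) are on the minus strand. Tnf and Lta are separated by 1157 bases, and Ltb and Tnf by 3060 bases. No exon base of these or the other 7 ligands lies under another annotated gene. The proteins share receptors, since Lta as a soluble homotrimer binds the TNF receptors and, joined to membrane-bound Ltb, binds Ltbr.

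Of the 3 neighbours, Lta was called in edgeR, and Tnf and Ltb were not. Lta was measured at 12.5, 11.5 and 11.3 CPM W/O IL-10 and at 6.95, 6.79 and 5.43 CPM W/ IL-10, from 262 to 306 and 124 to 153 counts. The libraries of the groups were clearly apart. Lta fell by 0.88 on the log2 scale (SE 0.14, 95% interval of the log2 fold change -1.20 to -0.56, edgeR adjusted p = 0.0213). The call was lost when W/ IL-10 replicate 1, 2 or 3 or W/O IL-10 replicate 2 was left out (edgeR adjusted p = 0.0669 to 0.116), while the log2 fold change stayed between -0.94 and -0.78.

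Tnf, which encodes the inflammatory cytokine TNF-α, was measured at 24.1, 28.4 and 27.0 CPM W/O IL-10 and at 26.0, 26.7 and 24.7 CPM W/ IL-10. All 3 libraries W/ IL-10 lay within the range of those W/O IL-10. Tnf had a log2 fold change of -0.04 (95% interval -0.25 to 0.18, edgeR adjusted p = 0.896). The sign turned in some alternatives, with values up to 0.01. Ltb, which anchors lymphotoxin to the membrane, was measured at 274, 217 and 259 CPM W/O IL-10 and at 175, 213 and 197 CPM W/ IL-10. Its groups did not overlap, but W/O IL-10 replicate 2 and W/ IL-10 replicate 2 were close to each other. The log2 fold change of Ltb was -0.36 (95% interval -0.60 to -0.11), which did not pass the test (edgeR adjusted p = 0.159).

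Per length, Lta stood at 0.616, 0.480 and 0.496 of the level of Tnf W/O IL-10 and at 0.316, 0.302 and 0.261 W/ IL-10. The groups of this ratio did not overlap (two-sided exact permutation p = 0.1, adjusted p = 0.125 over the 5 ratios). As for Tnfsf10 to Fasl, no smaller p was possible. The ratios were chosen after their values were seen, so they restate the differences of the single genes. The ratio of Lta to Ltb was 0.0520 ± 0.00545 W/O IL-10 against 0.0362 ± 0.00676 W/ IL-10 (exact permutation p = 0.1). For Ltb to Tnf the values were 10.3 ± 2.03 and 8.17 ± 0.789 (exact permutation p = 0.3). The last ratio, Tnfsf10 to Tnf, was 0.256 ± 0.0476 W/O IL-10 against 1.07 ± 0.198 W/ IL-10 (exact permutation p = 0.1).

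**Figure D2:**
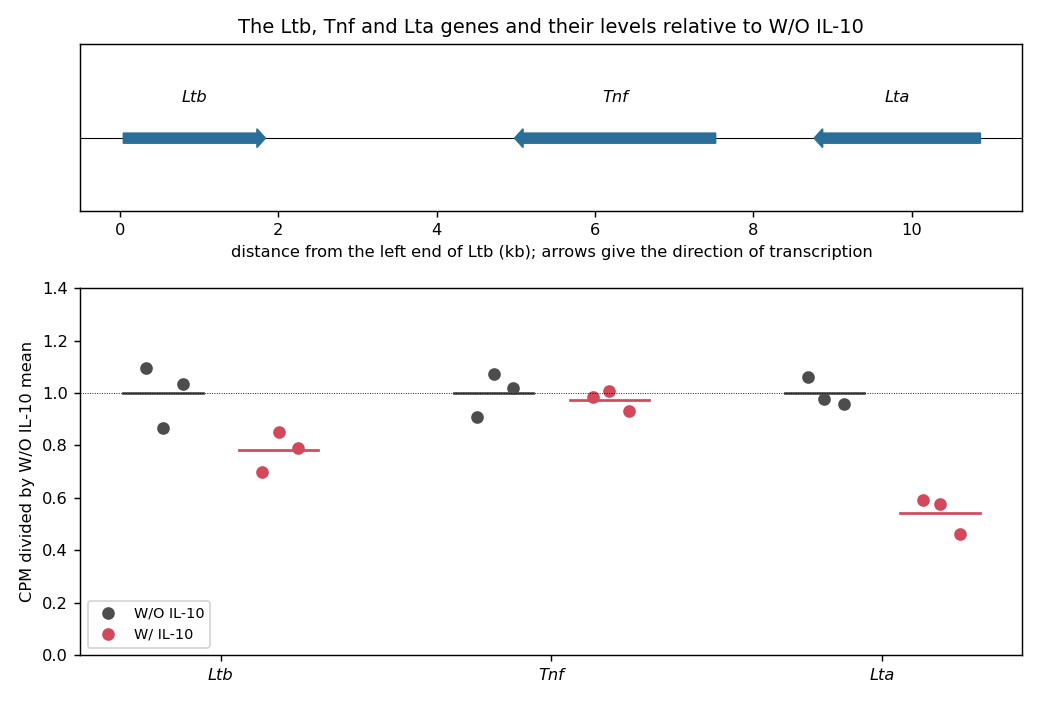
Top, the Ltb, Tnf and Lta genes drawn to scale by distance in kb from the left end of Ltb, with arrows in the direction of transcription. Bottom, CPM of each gene divided by its W/O IL-10 mean, with 1 point per library and the group mean as a line: the Lta points W/ IL-10 all sit below those W/O IL-10, whereas the Tnf points of the groups overlap.

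The sequences just before the start sites of the 3 neighbours and of Tnfsf10 are shown because these genes lie together or changed most. They are the 250 bases upstream of the RefSeq start on GRCm38.p6, read 5′ to 3′ on the strand of the gene, with motif matches in capitals. On both strands of 300-base windows, which also take in the first 50 transcribed bases, 4 motifs were searched. They were a STAT motif (TTCNNNGAA), an interferon response motif (GAAANNGAA), an AP-1 motif (TGANTCA) and the NF-kB motif. No matches overlapped in the windows of the ligands.
Lta, chr17:35205352-35205601, minus strand: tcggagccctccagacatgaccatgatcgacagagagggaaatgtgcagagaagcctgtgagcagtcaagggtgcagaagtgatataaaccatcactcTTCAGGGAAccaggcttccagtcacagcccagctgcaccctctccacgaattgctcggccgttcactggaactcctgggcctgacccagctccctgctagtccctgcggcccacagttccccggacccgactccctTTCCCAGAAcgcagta
Tnf, chr17:35202008-35202257, minus strand: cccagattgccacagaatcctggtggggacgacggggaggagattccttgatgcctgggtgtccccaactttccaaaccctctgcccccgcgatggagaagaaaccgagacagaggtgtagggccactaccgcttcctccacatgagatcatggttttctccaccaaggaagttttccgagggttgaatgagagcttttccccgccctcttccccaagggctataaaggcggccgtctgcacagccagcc
Ltb, chr17:35194257-35194506, plus strand: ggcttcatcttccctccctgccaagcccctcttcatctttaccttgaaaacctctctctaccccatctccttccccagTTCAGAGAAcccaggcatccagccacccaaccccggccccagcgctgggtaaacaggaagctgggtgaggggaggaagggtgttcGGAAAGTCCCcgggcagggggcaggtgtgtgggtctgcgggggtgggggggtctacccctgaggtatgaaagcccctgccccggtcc
Tnfsf10, chr3:27316827-27317076, plus strand: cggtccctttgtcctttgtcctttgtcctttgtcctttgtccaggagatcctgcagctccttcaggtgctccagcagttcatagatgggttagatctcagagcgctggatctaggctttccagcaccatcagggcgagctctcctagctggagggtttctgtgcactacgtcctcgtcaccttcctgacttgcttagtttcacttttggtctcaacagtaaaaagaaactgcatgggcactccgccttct

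The window of Lta held the STAT motif 2 times, starting 152 and 16 bases before the start site. At least 1 such motif was found in 8.30% of 32851 promoters and 2 or more in 0.457%. In the window of Ltb a STAT motif began 172 bases and an NF-kB motif 87 bases before the start. The NF-kB motif was found in 4.51% of promoters. The windows of Tnf, Tnfsf10, Tnfsf11 and Fasl held none of the 4 motifs as spelled. That of Tnfsf8 held the interferon response motif (8.56% of promoters) and that of Tnfsf14 the AP-1 motif (7.81%). A match describes letters in a window and not a bound site. Tnfsf4 and Cd40lg were not matched in the promoter table.

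The 3′ UTR, the part of the mRNA after the stop codon, was also compared between Tnf and its neighbours. AU-rich elements in it, built from ATTTA, are known to shorten the life of many cytokine mRNAs through proteins such as Zfp36. The following stretches of 30 bases, with ATTTA in capitals, are shown for Tnf, whose groups overlapped, and for Lta, which was called. Ltb is not shown because its 3′ UTR held no ATTTA.
Tnf, bases 437 to 466 of the 3′ UTR: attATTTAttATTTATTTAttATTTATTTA
Lta, bases 300 to 329 of the 3′ UTR: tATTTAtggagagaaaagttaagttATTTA

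The 764 bases of the Tnf 3′ UTR held 8 ATTTA copies and 5 copies of the longer TTATTTATT, overlaps counted. Only 0.139% of 12238 tested protein-coding genes held 5 or more of the latter. Lta had 3 ATTTA copies and 1 TTATTTATT in 572 bases, and Ltb had neither in 174 bases. By ATTTA copies per kb, Tnf (10.5) stood at the 99.4 percentile of these genes, Tnfsf11 (5.31) at 95.8, Lta (5.25) at 95.6 and Cd40lg (4.40) at 93.0. Tnfsf10 had 2.0 per kb, where the median gene had 1.20. Of these 4 ligands with a high density, Lta and Tnfsf11 were called lower, and Tnf and Cd40lg were not called. A link between the density and the fold change was not tested. Tnfsf8 held the most ATTTA copies, 10 in 2799 bases, and Tnfsf14 and Fasl held 1 each.

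Tnfsf11 (ENSMUSG00000022015, chr14:78277445-78308043, minus strand) encodes RANKL, which drives osteoclasts and prolongs the survival of dendritic cells. It was measured at 45.3, 56.6 and 53.6 CPM W/O IL-10 and at 34.5, 32.4 and 25.8 CPM W/ IL-10. No library W/ IL-10 reached the lowest W/O IL-10. Tnfsf11 fell by 0.75 on the log2 scale (SE 0.13, 95% interval of the log2 fold change -1.04 to -0.46, edgeR adjusted p = 0.0258). The call was lost without W/ IL-10 replicate 1, 2 or 3, W/O IL-10 replicate 2 or W/O IL-10 replicate 3 (edgeR adjusted p = 0.0604 to 0.126), and the log2 fold change then ranged from -0.83 to -0.63.

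Cd40lg (ENSMUSG00000031132, chrX:57212143-57224042, plus strand) encodes the ligand by which helper T cells activate B cells and dendritic cells through CD40. It was measured at 6.70, 6.87 and 4.26 CPM W/O IL-10 and 3.64, 3.86 and 3.11 CPM W/ IL-10. These values came from 99 to 166 and 71 to 87 counts. The groups did not overlap, but W/O IL-10 replicate 3 lay near the libraries W/ IL-10, and the coefficient of variation W/O IL-10 was 24.5%, the largest among the ligands. Cd40lg had a log2 fold change of -0.75 (SE 0.22, 95% interval -1.25 to -0.24). It had the same size as that of Tnfsf11 but did not pass the test (edgeR adjusted p = 0.149).

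The remaining costimulatory ligands did not pass the test, and their groups overlapped. Tnfsf8 (ENSMUSG00000028362, chr4:63831308-63861347, minus strand), the ligand of CD30, was measured at 88.4, 111 and 119 CPM W/O IL-10 and at 141, 114 and 126 CPM W/ IL-10. The log2 fold change of Tnfsf8 was 0.26 (95% interval -0.02 to 0.54, edgeR adjusted p = 0.383), and W/O IL-10 replicate 1 was the lowest library. Tnfsf4 (ENSMUSG00000026700, chr1:161395409-161418410, plus strand), the ligand of OX40, was measured at 20.9, 27.6 and 26.6 CPM W/O IL-10 and at 29.98, 26.8 and 25.8 CPM W/ IL-10. For Tnfsf4 the log2 fold change was 0.14 (95% interval -0.14 to 0.42, edgeR adjusted p = 0.659). Tnfsf4 and Fasl both lie on chromosome 1, 362278 bases apart, and Tnfsf18 lies between them.

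Tnfsf14 (ENSMUSG00000005824, chr17:57189492-57194177, minus strand) encodes LIGHT, which binds both Tnfrsf14 and Ltbr. It was measured at 26.6, 21.8 and 28.4 CPM W/O IL-10 and at 24.0, 33.3 and 28.0 CPM W/ IL-10. The lowest and the highest of the 6 libraries were both replicates numbered 2. Tnfsf14 had a log2 fold change of 0.15 (95% interval -0.18 to 0.48, edgeR adjusted p = 0.677).

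**Figure D3:**
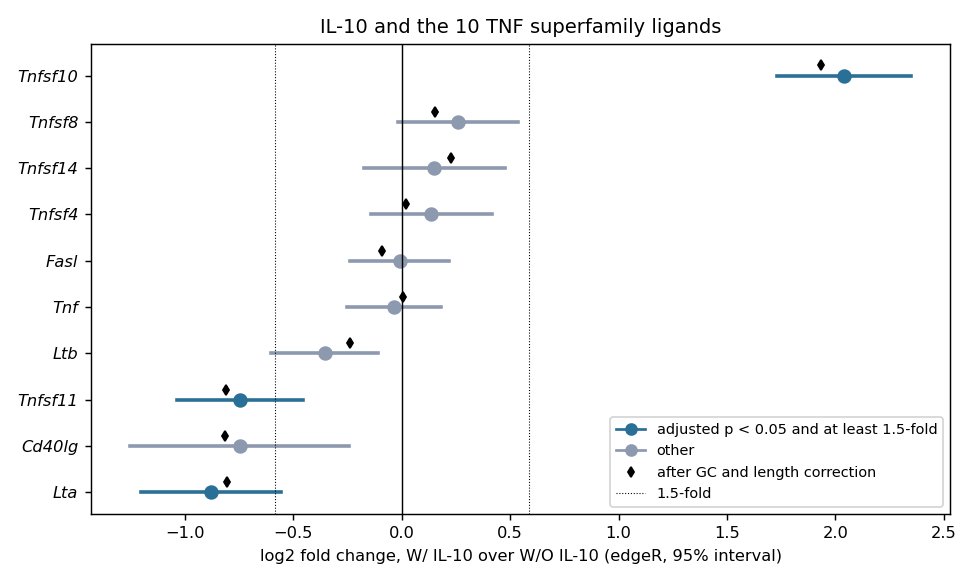
Log2 fold change (x axis, W/ IL-10 over W/O IL-10) of the 10 ligands in edgeR, with 95% intervals as lines, called ligands in blue, black diamonds for values corrected for gene length and GC content, and dotted lines at 1.5-fold. Tnfsf10 at 2.04 lies apart on the right, and Lta, Cd40lg and Tnfsf11 at -0.88, -0.75 and -0.75 lie on the left.

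The GC content of the longest transcript ranged from 42.6% for Tnfsf8 to 61.0% for Ltb, with 42.8% for Tnfsf10, and the same 3 ligands were called when gene length and GC content were corrected for. After this correction, the log2 fold change was 1.93 for Tnfsf10, -0.80 for Lta and -0.81 for Tnfsf11 (edgeR adjusted p = 0.000113, 0.0104 and 0.00423). Ltb moved from -0.36 to -0.24 and Cd40lg from -0.75 to -0.81 (edgeR adjusted p = 0.242 and 0.0660). B cells also make Lta and Ltb, and the 6 B cell markers had lower means W/ IL-10 beside these genes, with Blk called at a log2 fold change of -0.88 (edgeR adjusted p = 0.0373). The part of B cell RNA in the results was not tested.

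Levels of different ligands were compared as RPKM, CPM per kb of merged exons, so the ranks and shares depend on the exon lengths used. Ltb led in both groups, at 165 RPKM W/O IL-10 and 129 RPKM W/ IL-10, and made up 49.7% ± 4.04 and 42.9% ± 3.83 of the summed RPKM of the 10 ligands. Fasl followed with 54.1 and 53.7 RPKM and Tnfsf8 with 27.9 and 33.4 RPKM. W/O IL-10 the order then ran over Tnfsf11 (23.2 RPKM), Tnf (16.2), Tnfsf14 (13.9), Tnfsf4 (13.6), Lta (8.50), Cd40lg (4.76) and Tnfsf10 (4.10). Within it, the libraries of Tnfsf8 and Tnfsf11, of Tnf and Tnfsf14, of Tnfsf14 and Tnfsf4 and of Cd40lg and Tnfsf10 overlapped in range, so these neighbours were not separated.

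W/ IL-10, Tnfsf10 stood at 16.9 RPKM and had moved from rank 10 to rank 4 of the ligands. Its share of the summed RPKM was 1.24% ± 0.0936 W/O IL-10 against 5.63% ± 1.02 W/ IL-10. Below it came Tnf (15.8 RPKM), Tnfsf14 (15.4), Tnfsf4 (14.9), Tnfsf11 (13.8), Lta (4.62) and Cd40lg (2.83). From Tnfsf10 down to Tnfsf11, each ligand overlapped in range with the next. Tnfsf11 thus moved from rank 4 to rank 8, and its share was 7.04% ± 1.06 and 4.60% ± 0.650. The summed level of the 10 ligands was 309.7 to 349.6 RPKM W/O IL-10 and 297 to 305 RPKM W/ IL-10. Without Ltb the sums were 153 to 179 and 164 to 183 RPKM.

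**Figure D4:**
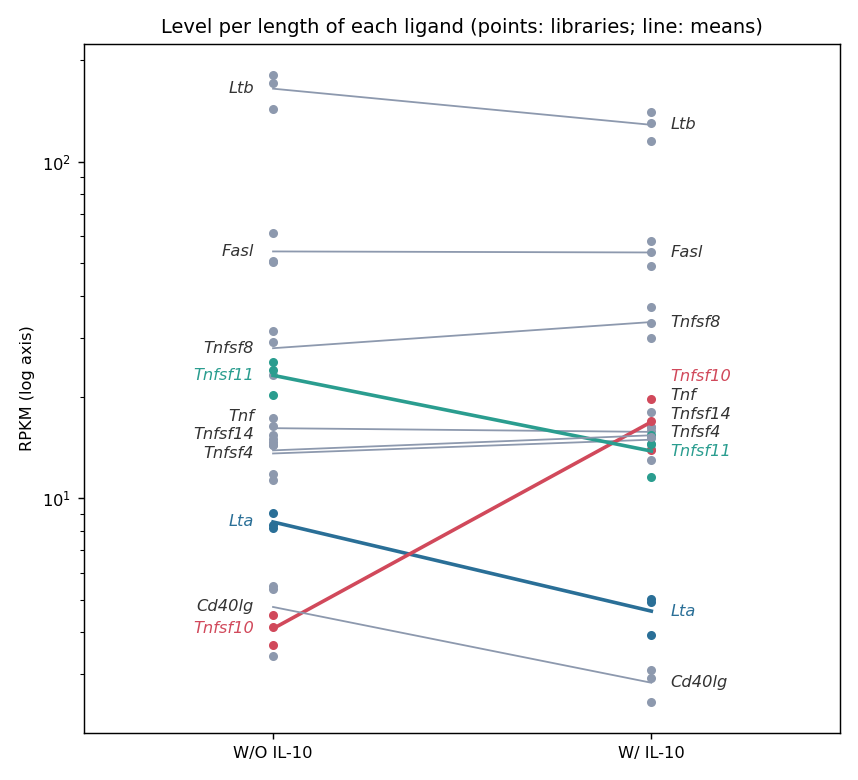
RPKM of the 10 ligands (y axis, log scale) in the groups without and with IL-10, with 1 point per library and lines joining group means, the called ligands in colour. Ltb stays at the top in both groups, while Tnfsf10 goes from the lowest mean of 4.10 to 16.9 RPKM and crosses Lta and Tnfsf11 on their way down to 4.62 and 13.8 RPKM.

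The variation among libraries of one group was modest. The coefficient of variation of CPM W/O IL-10 ranged from 5.52% for Lta to 24.5% for Cd40lg, and W/ IL-10 from 3.90% for Tnf to 17.1% for Tnfsf10. Tnf was among the most even of the ligands in both groups.

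Of the other ligands of the superfamily, 4 of 8 had enough counts to be tested and none of the 4 was called in edgeR, with 1 at an unadjusted p under 0.05, a level that 14.7% of all tested genes reached. The 1 gene was Tnfsf9, the ligand of the costimulatory receptor Tnfrsf9, at 4.99 ± 0.703 CPM W/O IL-10 and 6.59 ± 0.373 CPM W/ IL-10, with a log2 fold change of 0.40 (edgeR adjusted p = 0.295). Part of Tnfsf9 (14.9% of its exon bases) lies under Gm11110 on the opposite strand. Tnfsf12 (0.912 and 0.817 CPM), Tnfsf13b, the B cell factor BAFF (1.86 and 1.91 CPM), and Cd70 (0.412 and 0.441 CPM) had few reads, with log2 fold changes of -0.16, 0.03 and 0.09. Tnfsf13 and Tnfsf15 had at most 8 and 7 counts in a library, Eda at most 5, and Tnfsf18 had 2 counts in 1 library and 0 in the other 5. Tnfsf12 and Tnfsf13 share exons with the readthrough gene Tnfsfm13, so their counts are uncertain.

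The receptors that bind the 10 ligands were looked at in the same libraries. All 13 were tested in edgeR and none was called, with 4 at an unadjusted p under 0.05 (14.7% of all tested genes), and their median log2 fold change was -0.08. Tnfrsf1b, the TNF receptor typical of T cells, was measured at 288 ± 7.06 CPM W/O IL-10 and 232 ± 1.17 CPM W/ IL-10. The groups did not overlap, and the log2 fold change of -0.31 was under 1.5-fold and did not pass the test (edgeR adjusted p = 0.0546). Tnfrsf1a, which carries a death domain, stood at 27.3 and 28.5 CPM (log2 fold change 0.06). Ltbr, the lymphotoxin receptor of stromal and myeloid cells, was near 1 CPM in both groups, at 1.19 and 0.803 CPM.

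For Tnfsf10, the death receptor Tnfrsf10b stood at 21.4 ± 1.31 CPM W/O IL-10 and 20.2 ± 2.43 CPM W/ IL-10 (log2 fold change -0.08, edgeR adjusted p = 0.795). Its decoy receptors Tnfrsf22 and Tnfrsf23, which lack a working death domain, had log2 fold changes of 0.27 and 0.56 (edgeR adjusted p = 0.464 and 0.113). Tnfrsf23 was at 19.3 ± 2.98 and 28.5 ± 4.59 CPM, and its groups did not overlap. Fas, the receptor of Fasl, was at 8.98 and 9.31 CPM (log2 fold change 0.05). For Tnfsf11, the receptor Tnfrsf11a was at 0.611 and 0.444 CPM and the soluble decoy Tnfrsf11b at 2.07 and 0.930 CPM (edgeR adjusted p = 0.772 and 0.257). Tnfrsf11b had a log2 fold change of -1.16, and its groups did not overlap. Its values rested on few reads, 46 to 57 counts W/O IL-10 and 8 to 31 W/ IL-10.

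The receptors of the costimulatory ligands were also measured. Tnfrsf8, or CD30, stood at 137 and 143 CPM (log2 fold change 0.07), Tnfrsf14 at 29.2 and 30.2 CPM (0.05) and Tnfrsf4, or OX40, at 5.60 and 5.31 CPM (-0.08). Cd40, a receptor of B cells and dendritic cells, was at 1.15 and 0.456 CPM, with a log2 fold change of -1.33 that did not pass the test (edgeR adjusted p = 0.112). Its groups did not overlap. The 6 B cell markers also had lower means W/ IL-10, whereas the dendritic cell markers went in both directions, and their part in the level of Cd40 was not tested.

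Among 16 genes of ligand shedding and of cytokine mRNA decay, 1 was called, where 1.45% of all tested genes were. This was Zc3h12d, a member of the Regnase family of proteins that restrain cytokine mRNAs, at 44.3 ± 2.16 CPM W/O IL-10 and 80.1 ± 5.80 CPM W/ IL-10. The log2 fold change of Zc3h12d was 0.85 (SE 0.08, edgeR adjusted p = 0.00220). Zfp36, which binds AU-rich elements of Tnf and other mRNAs, stood at 70.3 ± 1.25 and 89.7 ± 7.78 CPM, and its paralog Zfp36l1 at 59.3 and 45.5 CPM. Their log2 fold changes of 0.35 and -0.38 lay on opposite sides and did not pass the test (edgeR adjusted p = 0.0671 and 0.0699). After correction for gene length and GC content they were 0.43 and -0.36. Both then passed the adjusted p but not the fold change (edgeR adjusted p = 0.0180 and 0.0415). The sheddase genes Adam10 and Adam17 were among the 15 genes of the list that were not called.

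Of 17 genes of TNF receptor signaling, none was called in edgeR, and 6 had an unadjusted p under 0.05 (14.7% of all tested genes). Traf1, an adaptor induced by NF-kB, passed the adjusted p but not the fold change. An adjusted p under 0.05 at any fold was reached by 2.19% of all tested genes. Traf1 was measured at 316 ± 15.7 CPM W/O IL-10 and 418 ± 22.4 CPM W/ IL-10 and rose by 0.41 on the log2 scale (edgeR adjusted p = 0.0422). Tnfaip3, which encodes the NF-kB inhibitor A20, was at 397 and 306 CPM, with a log2 fold change of -0.38 (edgeR adjusted p = 0.121). Over the 4 lists together, 1 of 50 tested genes was called, a share near the 1.45% of all tested genes, and the median log2 fold change was 0.06.

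Genes that followed the same course as Tnfsf10 and Lta over the 6 libraries were sought among 10285 tested genes with a mean of at least 5 CPM. The measure was the root-mean-square difference of log2 CPM relative to the W/O IL-10 mean. Nearest to Tnfsf10 were Gm19705 (0.197), Bcl3 (0.290) and Socs3 (0.338), with log2 fold changes of 1.84, 1.69 and 1.82. Bcl3 encodes an atypical IkB protein and Socs3 a feedback inhibitor of cytokine signaling. Nearest to Lta were Dscam (0.102), Gja1 (0.102) and Nr1d1 (0.103), with log2 fold changes of -0.81, -0.81 and -0.84. These 3 are known as a neuronal adhesion molecule, a gap junction protein and a repressor of the circadian clock. The likeness describes 6 libraries in 2 groups, so that most of it is the difference between the groups.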

How the data were processed

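RNA of 6 cDNT libraries, 3 with and 3 without IL-10, was sequenced on an Illumina HiSeq platform. The authors deposited whole-number read counts per Ensembl gene, without normalization, in 1 table of 29393 genes. The submitters' processing notes name HISAT2, HTSeq and GRCm38, whereas the study's methods name TopHat, Cufflinks and UCSC annotation. The versions and the use of strand are not given in the sources used here, and reads of overlapping genes could be lost or shared. The library kit is NEBNext in the methods and TruSeq in the labels, and the design text speaks of duplicates. No pair of libraries was identical, and all value columns were used.

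Genes were tested if 3 or more libraries had 10 or more counts, which kept 14916. TMM factors (0.953 to 1.03) and the quasi-likelihood test, with no block, were run in edgeR 4.0.16 under R 4.3.3, and Benjamini-Hochberg adjustment covered all tested genes. The study's thresholds were used, a fold change of at least 1.5 and an adjusted p-value under 0.05, and the study names no test. The SE is the absolute log2 fold change divided by the square root of F. A floor of 3 counts was 0.123 to 0.146 CPM and covers counting error only. Symbols, coordinates, exon lengths and 3′ UTRs come from GENCODE release M21 of GRCm38, in which 29332 identifiers were found, and promoters from RefSeq (GRCm38.p6), which held 8 of the 10 ligands. Shared sequence was measured as 50-base stretches found in transcripts of another gene, of which Tnfsf10 had 0.3% and the rest of the 10 ligands none.

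The alternatives were DESeq2 1.42.0, upper-quartile factors, no filter, 10 counts in every library, limma-voom (limma 3.58.1), the replicate number as a block, offsets for GC content and length (splines with 5 degrees of freedom, with and without the block), glmTreat of edgeR with 1.5-fold as the null, and the omission of each library in turn. The main fit, the GC and length correction, limma-voom and DESeq2 were also run on simulated counts with 200 genes changed. The simulation held no effect of GC content, length or replicate number. It therefore could not test how well these are corrected for. The named genes are the 10 ligands, their receptors, the other ligands, listed partner genes with an adjusted p under 0.05, and the 3 genes nearest to Tnfsf10 and to Lta. Zfp36, Zfp36l1 and Tnfaip3 were named after their values were seen. The members and lists were chosen with earlier results of these data known.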

Additional observations from a re-analysis of the deposited data

How the results depend on the processing

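Tnfsf10 was called in all 15 alternatives (log2 fold change 1.91 to 2.16, edgeR adjusted p up to 0.00724 without 1 library). With 1.5-fold as the null hypothesis in edgeR, 15 genes, 1 ligand (Tnfsf10) and 0 partner genes were called, since that test asks for more than the main one. Over all genes, 217 calls became 359 with DESeq2, 637 with no filter and 329 with GC and length correction with the block. With 1 library left out they ranged from 35 to 254, and the called ligands from 1 to 3. Partner genes called were 2 with no filter and ranged from 1 to 2 with 1 library left out. Only Tnfsf10 remained without W/ IL-10 replicate 1, 2 or 3 or without W/O IL-10 replicate 2. Each fit without 1 library had fewer samples, and a group of 2 shares its spread with the other group. Without W/O IL-10 replicate 1, however, 254 genes were called, with Lta, Tnfsf10 and Tnfsf11 among them. The cause of the lost calls was not tested. Lta and Tnfsf11 kept their signs throughout, and Lta had an adjusted p of 0.996 with 1.5-fold as the null hypothesis. Cd40lg passed in edgeR with no filter (-0.75, adjusted p = 0.0304) and with GC and length correction with the block (-0.80, adjusted p = 0.0389). The cause was not tested. The sign of Tnf turned with GC and length correction (0.0041), with the block added (0.014) and without W/O IL-10 replicate 2 (0.0099, range with 1 library left out -0.11 to 0.0099). That of Fasl turned without W/ IL-10 replicate 2 (0.051) and without W/O IL-10 replicate 3 (0.078, range -0.070 to 0.078). The labels number the replicates 1 to 3 in both groups, but these numbers share no stated animal or batch. The correlation of deviations within a number was 0.0524, -0.0573 and 0.114, and 4 of 6 libraries correlated best with their own number. Under the replicate block, 196 genes were called, 167 of them also without it, and the same 3 ligands were called: Tnfsf10 at 2.03, Lta at -0.88 and Tnfsf11 at -0.75 (edgeR adjusted p = 0.000895, 0.0335 and 0.0450). Cd40lg rested on 71 to 166 counts per library, the fewest of the 10 ligands.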
